A study of Colocasia esculenta with 9 samples.

Results

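In the annotation used to count taro (Colocasia esculenta) leaf RNA, 3860 of 57034 gene models (6.77%) have a single exon. They were taken as the gene models listed with 1 start position, and the 53174 gene models with several exons served as the comparison. A gene with no intron yields an RNA that needs no splicing, and its exon is one unbroken block on the chromosome. Plant genomes hold many such genes. They can arise when an intron is lost, when an RNA is copied back into DNA and inserted, or when an intronless gene is duplicated, and several large plant families are mostly intronless, among them the small auxin-up RNA genes and many pentatricopeptide repeat genes. The files give no name or product for any gene model, so none is assigned to a family here and each is given by identifier, scaffold and position.

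The libraries came from leaves of the cultivars Sam-07 (also called Samasama), Palau 10 (also called Ngerruuch) and Niue, with 3 libraries each. Taro is an aroid grown for its corm and leaves and is propagated as clones. All plants were in the vegetative stage, had been raised from tissue culture and were kept for 8 months under 12 h of light per day, at 27 °C and 85% humidity, in a chamber. RNA was drawn by the CTAB method from 4 g of the 2 youngest leaves and was vacuum-dried for 40 h before it was sent for stranded library preparation. Whether each library of a cultivar is a plant of its own is not stated in the labels. The p-values therefore measure only how far these samples differ, and that spread may be technical. Nor can leaf identity be checked against marker genes, since no gene model carries a name. In bulk leaf RNA, fewer cells of a type and less RNA per cell cannot be told apart.

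Depth ranged from 5468567 to 18175384 fragments assigned to gene models per library, and 3 fragments, the level that a count of 0 allows, equalled 0.140 to 0.642 counts per 1000000 (CPM). This floor covers counting error only. Palau 10 replicate 3 and Sam-07 replicate 2 stood apart from the other libraries of their cultivars. For each library, log2(CPM + 1) was compared with its mean over the other 2 libraries of the cultivar. Of 1355 single-exon gene models that averaged 3 CPM or more, 15.3% in Palau 10 replicate 3 and 7.97% in Sam-07 replicate 2 differed from it at least 4-fold. In the other 7 libraries the share was 1.55% to 5.17%.

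Single-exon gene models had a median length of 699 bp (quartiles 414 and 1371, range 162 to 5349), against a summed exon length of 876 bp for gene models with several exons. Of the 3860 lengths, 3859 are multiples of 3, against 59.2% of those with several exons, so the single-exon lengths are read here as coding lengths. No sequence was at hand to check this. Many lengths of gene models with several exons cannot be read so. Weighting by length, length classes and CPM per kb may therefore set unlike lengths beside each other. The 2 strands were used about equally, with 1929 single-exon gene models on the plus strand. From first to last exon, 116 of them (3.01%) overlapped another gene model, always on the opposite strand, against 7.52% of those with several exons. Fragments on exon bases shared by overlapping gene models were not counted, which touches 94 single-exon gene models.

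The first question was how many single-exon gene models were expressed in leaf. At least 1 fragment in some library was found for 2681 of the 3860 (69.5%), against 47.2% of gene models with several exons, and the other 1179 had no fragment in any library. At 1 CPM or more, 39.9% to 44.2% of single-exon gene models were expressed per library, with a mean of 42.5% ± 1.52 (SD, n = 9 libraries). For gene models with several exons the range was 28.7% to 30.5% and the mean 29.3% ± 0.524. The share was higher for single-exon gene models in 9 of 9 libraries, by 10.2 to 14.8 percentage points, a gap far above the spread between libraries. Weighting the gene models with several exons to the lengths of the single-exon ones lowered their mean to 25.4%, as far as the lengths of the sets compare.

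By cultivar, 1408 single-exon gene models (36.5%) reached 1 CPM in all 3 Sam-07 libraries, 1484 (38.4%) in all 3 Palau 10 libraries and 1470 (38.1%) in all 3 Niue libraries. In all 9 libraries it was 1279 (33.1%), against 25.6% of gene models with several exons. No single-exon gene model was expressed in all libraries of 1 cultivar and without a fragment in the other 2 cultivars. Among the 53174 gene models with several exons 14 were so in Sam-07 (0.0263%), 13 in Palau 10 (0.0245%) and 25 in Niue (0.0470%). Taro_029022 was the 1 single-exon gene model (0.0259%) without a fragment in Palau 10 and expressed in both other cultivars, beside 26 with several exons (0.0489%). None lacked fragments in Sam-07 or Niue alone, where 12 (0.0226%) and 11 (0.0207%) with several exons did. In sets of these sizes, shares this low rest on very few gene models.

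The share expressed grew with length in both sets. In the class of 300 bp or less it averaged 11.9% ± 0.458 for single-exon gene models and 6.01% ± 0.305 for those with several exons (SD over 9 libraries). Above 300 and up to 600 bp the means were 29.5% ± 2.03 and 8.77% ± 0.393, and above 600 and up to 1200 bp 43.8% ± 2.08 and 21.2% ± 0.640. Above 2400 bp the sets were close, at 76.5% ± 2.21 for single-exon gene models and 74.3% ± 0.815 for those with several exons. By exon number the relation had a low point at 2 exons. A mean of at least 1 CPM was reached by 44.9% of gene models with 1 exon, 16.5% with 2, 20.1% with 3 and 67.3% with 10 or more.

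**Figure D1:**
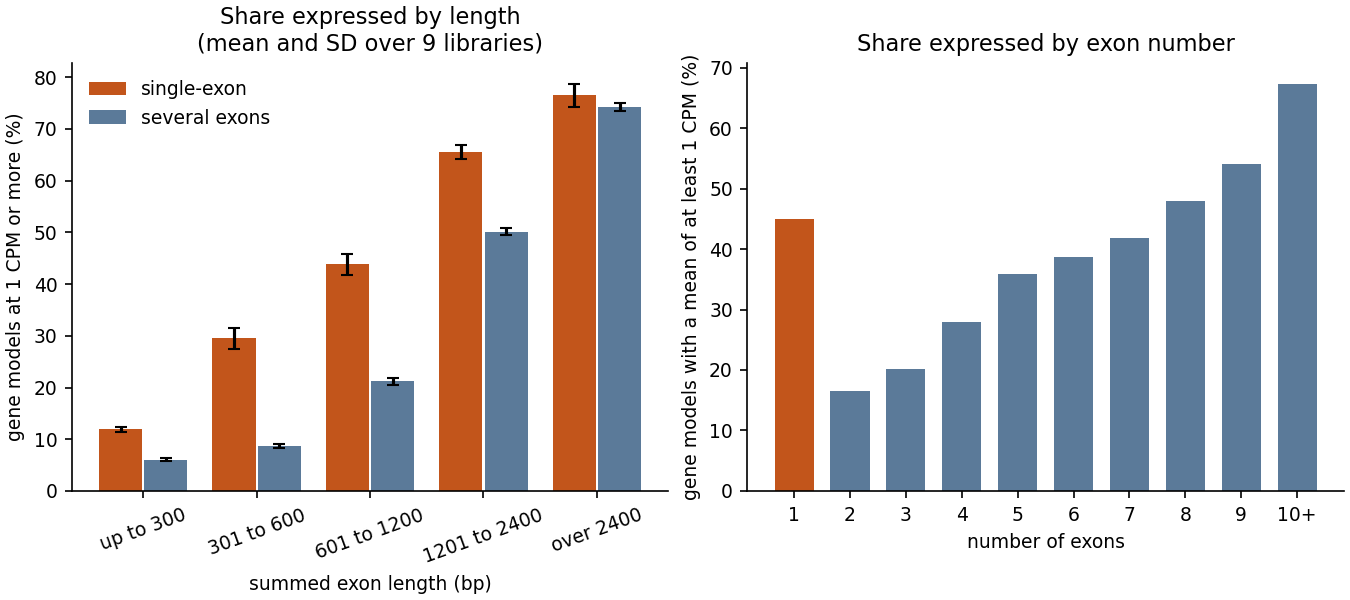
Left, the percentage of gene models at 1 CPM or more by summed exon length in bp, for single-exon gene models and those with several exons, with bars for the mean and lines for the SD over 9 libraries. Right, the percentage with a mean of at least 1 CPM by exon number, where gene models with 1 exon stand at 44.9% and those with 2 exons at 16.5%.

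Levels between gene models were compared as CPM per kb of exon, among gene models averaging 1 CPM or more across the 9 libraries. Over all lengths the medians were alike, 10.85 CPM per kb for 1733 single-exon gene models and 10.68 for 15974 with several exons, but the medians by length ran in different ways. In gene models of 300 bp or less the median was 31.6 CPM per kb for single-exon gene models and 18.98 for those with several exons. Above 300 and up to 600 bp it was 27.8 and 12.4, and above 600 and up to 1200 bp 15.8 and 11.2. Past this floor, longer single-exon gene models lay below those with several exons, at 5.63 against 11.03 CPM per kb up to 2400 bp and 2.68 against 9.09 above 2400 bp. The medians of single-exon gene models thus spanned more than the SD of the library medians, which was 4.37 CPM per kb in the shortest class and 0.521 in the longest. A floor of 1 CPM admits short gene models only at high levels per kb. With a floor of 1 CPM per kb in its place, the 5 medians were 14.3, 20.6, 14.9, 6.91 and 4.71 for single-exon gene models and 7.63, 8.47, 10.8, 11.8 and 10.0 for the others, so the single-exon set still lay above up to 1200 bp and below from there on. Over all gene models, those without fragments included, the picture differed. The single-exon medians were then 0, 0.0952, 0.647, 1.92 and 1.70 CPM per kb from the shortest class to the longest, and the others 0 in the 3 classes up to 1200 bp, 0.858 up to 2400 bp and 5.43 above. The lower level above 1200 bp therefore held for expressed gene models, with either floor. A fall from the shortest class on was seen with the floor of 1 CPM. With 1 CPM per kb the medians rose up to 600 bp and fell only from there on.

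**Figure D2:**
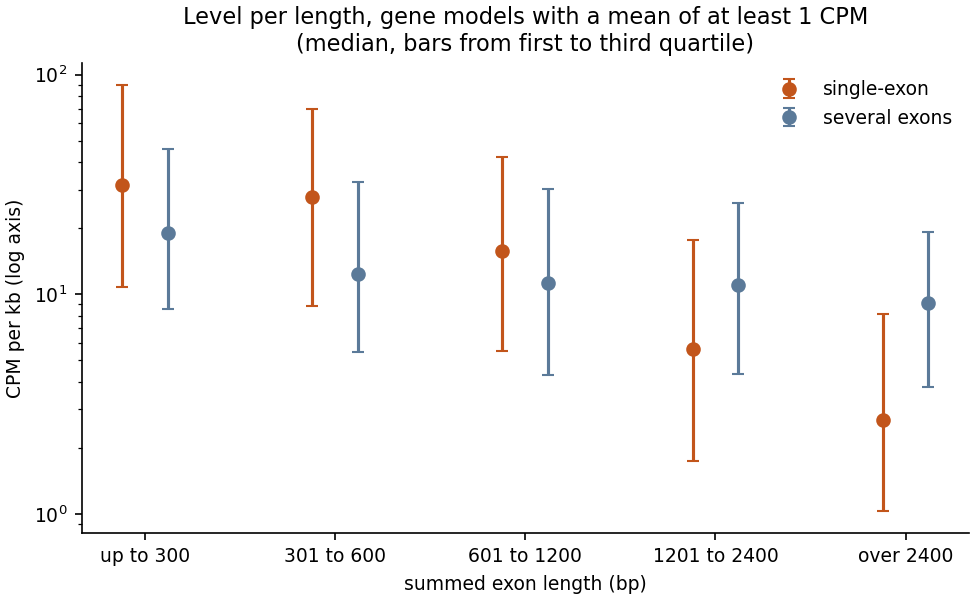
Level in CPM per kb of exon (log axis) by summed exon length in bp, for gene models averaging 1 CPM or more; points are medians over gene models and bars run between the quartiles. The single-exon medians go from 31.6 in the shortest class to 2.68 in the longest, and those of gene models with several exons from 18.98 to 9.09.

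A few abundant members made up much of the signal. Single-exon gene models took 9.86%, 6.43% and 9.59% of the fragments in Sam-07, 7.31%, 7.91% and 8.69% in Palau 10, and 7.82%, 5.57% and 5.40% in Niue. The means were 8.62% ± 1.91 in Sam-07, 7.97% ± 0.693 in Palau 10 and 6.26% ± 1.35 in Niue (SD, n = 3 each), and the cultivars overlapped. An exact permutation test of the spread among the 3 means gave p = 0.186 over 280 assignments, where 0.00357 is the smallest possible. Without Sam-07 replicate 2 it gave p = 0.0286 (exact permutation). Leaving out any other library gave p from 0.121 (without Niue replicate 2) to 0.414 (without Niue replicate 4) in the same test. The 10 most abundant members per kb took 18.8% to 46.5% of the single-exon fragments of a library, lowest in Sam-07 replicate 2 and highest in Sam-07 replicate 1.

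The most abundant was Taro_028950, 804 bp on the minus strand of TARO_scaffold_001897 from 102070 to 102873. It had 16593, 620.1 and 8231 CPM in Sam-07, 4574, 1435 and 6615 CPM in Palau 10, and 1242, 854.8 and 2940 CPM in Niue. The lowest and the highest of all 9 libraries were both of Sam-07, so its cultivars overlapped fully. Taro_050602 (801 bp, TARO_scaffold_007658, 6660 to 7460, plus strand) had 10762, 1840 and 5677 CPM in Sam-07, 3468, 2522 and 3551 CPM in Palau 10, and 2375, 1724 and 2445 CPM in Niue. Taro_020658 (804 bp, TARO_scaffold_001030, 249854 to 250657, minus strand) had 7401, 983.6 and 4201 CPM in Sam-07, 2984, 1825 and 3580 CPM in Palau 10, and 2000, 1590 and 2942 CPM in Niue. The Sam-07 libraries ran in the same order in all 3 gene models, with replicate 1 highest and replicate 2 lowest. Other abundant members differed less between libraries. Taro_026472 (522 bp, TARO_scaffold_001600, 242301 to 242822, plus strand) lay between 816.4 CPM in Palau 10 replicate 3 and 1598 CPM in Palau 10 replicate 2, and Taro_015806 (639 bp, TARO_scaffold_000688, 409048 to 409686, plus strand) between 1395 and 4258 CPM.

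The next question was how far libraries of a cultivar differed. Spread was measured per gene model as the pooled SD of log2(CPM + 1) within the 3 cultivars (6 degrees of freedom), and gene models with several exons were weighted to the levels of the single-exon ones. The median SDs of the level classes were averaged, weighted by the number of single-exon gene models in each. This average was 0.50 for single-exon gene models and 0.36 for those with several exons at matched level, a ratio of 1.38. The gap was present in each level class. From 1 to 3 CPM the medians were 0.44 and 0.40, from 10 to 30 CPM 0.53 and 0.33, and at 100 CPM or more 0.58 and 0.39. It was present in each cultivar as well. The same averages were 0.42 against 0.33 in Sam-07, 0.54 against 0.37 in Palau 10 and 0.32 against 0.24 in Niue. Leaving out any 1 library gave a difference of 0.10 to 0.15, with the lowest without Palau 10 replicate 3, and leaving out that library and Sam-07 replicate 2 together gave 0.10.

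The excess was larger in short gene models. Without matching for level, the median SD of single-exon gene models of over 300 to 600 bp was 0.59, against 0.33 with several exons. Above 2400 bp it was 0.38 against 0.37. Level classes of 3 to 10, 10 to 30 and 30 to 100 CPM were then taken in turn. From over 300 to 600 bp the medians were 0.64 against 0.32, 0.58 against 0.31 and 0.54 against 0.35. Above 2400 bp they were 0.470 against 0.476, 0.373 against 0.365 and 0.245 against 0.319, so no steady excess was left there. At a mean of 10 to 100 CPM the median SD was 0.52 with 1 exon, 0.45 with 2, 0.35 with 3 and 0.31 with 10 or more. An SD of at least 1 was found for 163 of 901 single-exon gene models (18.1%) averaging 10 CPM or more, against 6.59% of those with several exons. An SD of at least 2 was found for 29 (3.22%), against 1.08%.

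**Figure D3:**
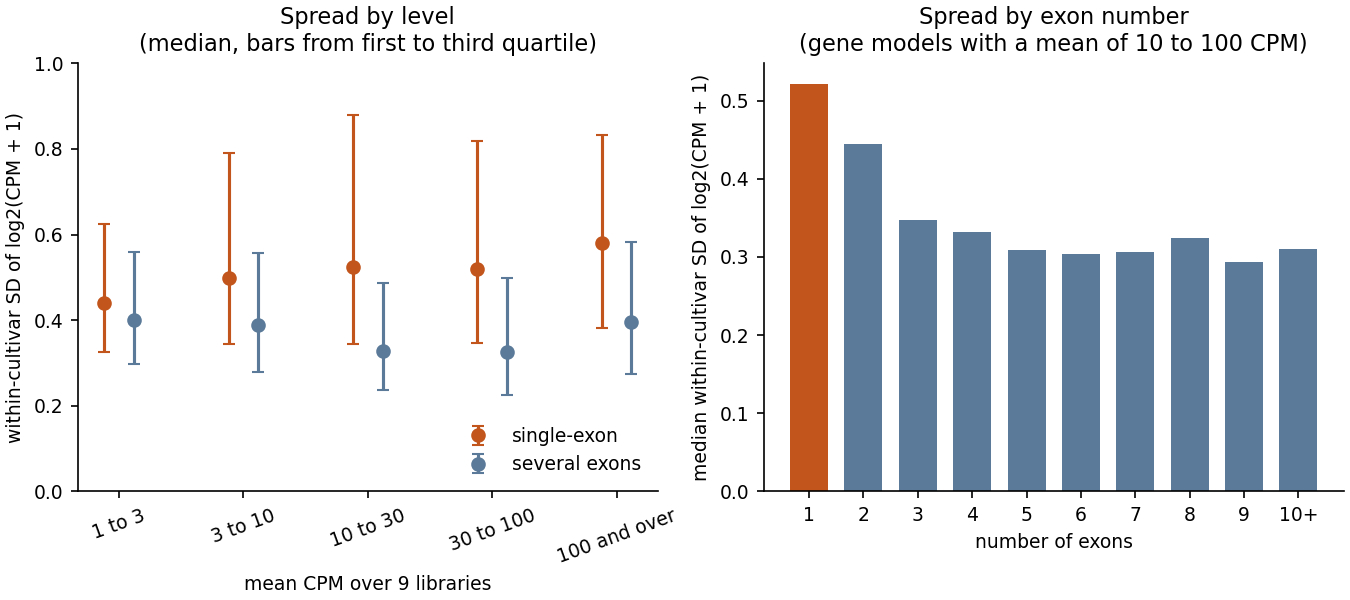
Within-cultivar SD of log2(CPM + 1). Left, by mean CPM over the 9 libraries, with the median as a point and the quartiles as bars, single-exon medians lying at 0.44 to 0.58 and those with several exons at 0.32 to 0.40. Right, the median by exon number for gene models with a mean of 10 to 100 CPM, highest at 0.52 with 1 exon.

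Libraries also shifted the single-exon set as a whole. The median log2 difference of a library from the other 2 of its cultivar, over the 1355 single-exon gene models, lay between -0.20 in Niue replicate 3 and 0.35 in Palau 10 replicate 2. Niue replicate 2 (0.32) and Sam-07 replicate 3 (0.19) were also above the other libraries of their cultivars. Over 13757 gene models with several exons it lay between -0.04 and 0.06. The shift varied with length, though not alike in all libraries. In Palau 10 replicate 3 it was -0.61, -0.45, -0.26, -0.06 and 0.29 from the shortest length class to the longest. For gene models with several exons it was -0.04, -0.22, -0.21, -0.07 and 0.26 there, so the sets were close above 600 bp. In Niue replicate 2 the single-exon values were 0.25, 0.34, 0.42, 0.32 and 0.05, without such a rise. Centring each library on the median of its own set left the difference in spread at 0.14. RNA quality is not recorded in the labels, and its part in these shifts was not tested.

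**Figure D4:**
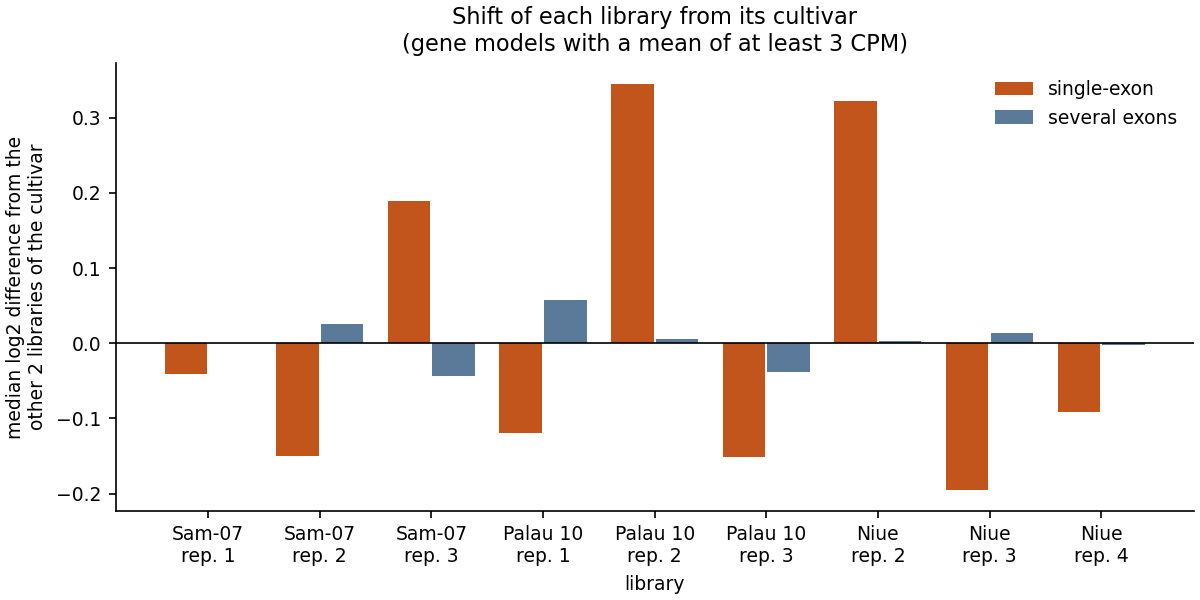
Median log2 difference of each library from the other 2 libraries of its cultivar, over gene models averaging 3 CPM or more, for single-exon gene models (1355) and those with several exons (13757). Single-exon bars reach 0.35 and -0.20, whereas the others stay between -0.04 and 0.06.

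The members with the highest spread shared a low value in Sam-07 replicate 2 but differed in their order within Palau 10. Taro_010477 (639 bp, TARO_scaffold_000379, 516665 to 517303, minus strand) had 833.5, 0.515 and 328.2 CPM in Sam-07, 292.6, 14.9 and 233.5 CPM in Palau 10, and 4.72, 3.08 and 46.9 CPM in Niue. Taro_010290 (429 bp, TARO_scaffold_000370, 430516 to 430944, minus strand) had 510.7, 8.70 and 2918 CPM in Sam-07, 49.4, 11.1 and 680.1 CPM in Palau 10, and 8.85, 7.30 and 80.1 CPM in Niue. Both were low in Sam-07 replicate 2 and Palau 10 replicate 2 and high in the other libraries of those cultivars. Taro_054371, Taro_027329 and Taro_043573 completed the 5 with the highest spread. In Palau 10 they had 31.1, 3.94 and 249.4 CPM, 254.3, 14.1 and 6.43 CPM, and 187.1, 51.4 and 76.0 CPM. Pearson's r between pairs of the 5 was 0.634 to 0.959 over 9 libraries, which share their depth and handling. The 5 were picked by their spread in these same libraries, so r between them is no independent measure. In sum they had 5145, 22.6 and 5296 CPM in Sam-07, 814.5, 95.4 and 1246 CPM in Palau 10, and 42.1, 21.9 and 474.4 CPM in Niue. At the other end, the steadiest included Taro_001401 (3354 bp, TARO_scaffold_000029, 377591 to 380944, plus strand), which lay between 28.1 and 32.6 CPM in all 9 libraries. Of the 5 steadiest, 3 were longer than 2400 bp, whereas each of the 5 with the highest spread was shorter than 1200 bp.

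Cultivars were compared gene by gene with edgeR's quasi-likelihood test over all 18865 gene models that passed the filter on low counts. Of the 3860 single-exon gene models, 1863 passed (48.3%), against 32.0% of those with several exons, and calls are adjusted p-values (Benjamini-Hochberg) under 0.05 over all 18865. Between Palau 10 and Niue 18 single-exon gene models were called (0.966%), where 1.81% of all tested gene models were. Of the 18, 6 were higher in Palau 10, beside a background of 0.625%, and 12 lower, beside 1.18%. Between Sam-07 and Niue 8 were called (0.429%, background 1.22%), all 8 lower in Sam-07 (backgrounds 0.461% higher and 0.758% lower). Between Sam-07 and Palau 10 19 were called (1.02%, background 1.73%), 9 higher and 10 lower in Sam-07 (0.848% and 0.885%). At an unadjusted p under 0.05 the 3 comparisons had 185 (9.93%), 163 (8.75%) and 198 (10.6%) single-exon gene models, against 11.6%, 9.83% and 10.3% of those with several exons. These shares are close, and in the last comparison that of single-exon gene models was the higher.

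The split by direction rested on the tool and on single libraries. DESeq2 called 34 higher and 27 lower in Palau 10 than in Niue (backgrounds 1.68% and 2.12%), 15 higher and 33 lower in Sam-07 than in Niue (1.31% and 1.77%), and 21 higher and 49 lower in Sam-07 than in Palau 10 (1.64% and 2.27%). With edgeR and without Palau 10 replicate 3, the first comparison had 15 higher and 14 lower (0.983% and 1.23%) and the last 10 higher and 29 lower (0.858% and 1.24%). Without Sam-07 replicate 2, Sam-07 against Niue had 8 higher and 8 lower (0.521% and 0.625%). With library sizes unscaled Sam-07 against Palau 10 had 7 higher and 14 lower, together 1.13% (background 1.66%).

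Over all levels together, the share called was below that of gene models with several exons weighted to the same levels. In the joint test of any difference among the 3 cultivars 27 single-exon gene models were called (1.45%, background 2.72%), against 2.86% of those with several exons and 3.46% when these were weighted to the levels of the single-exon set. In this fit the gap was wider at lower levels. From 1 to 3 CPM 7 of 369 single-exon gene models (1.90%) were called, against 7.21%, and from 10 to 30 CPM 7 of 465 (1.51%), against 1.76%. At 10 to 30 CPM single-exon gene models were called more often than the others with DESeq2 (5.81% against 4.67%), with no filter on low counts (2.15% against 1.83%) and without Palau 10 replicate 3 (3.87% against 2.91%). With DESeq2 the same held from 30 to 100 CPM (3.46% against 2.84%) and at 100 CPM or more (2.54% against 2.285%). Its single-exon share was the lower one in each class under 10 CPM. Without Palau 10 replicate 3 the same held from 30 to 100 CPM (1.89% against 1.64%) but not at 100 CPM or more (0% against 1.37%). In the edgeR fit of all 9 libraries, single-exon gene models above 2400 bp were also called more often, 6 of 141 (4.26%) against 1.41%. DESeq2 called 102 single-exon gene models (5.47%, background 6.01%), against 6.93% at matched level. With no filter on low counts edgeR called 36 of 2681 (1.34%, background 1.97%), against 2.44%. Without Palau 10 replicate 3 it called 44 (2.34%, background 3.46%), against 4.09%. Without each of the other libraries but Sam-07 replicate 2, which gave 27 (background 2.355%), it called fewer. The numbers were 15 without Sam-07 replicate 1 (background 1.749%) and 8 without Sam-07 replicate 3 (1.701%). They were 16 without Palau 10 replicate 1 (1.655%), Palau 10 replicate 2 (1.682%) or Niue replicate 2 (1.754%). Without Niue replicate 3 and Niue replicate 4 they were 14 (1.653%) and 10 (1.41%). The share called of all tested gene models thus fell in the same fits. A filter of at least 10 CPM in 3 libraries left 3 (background 1.095%). The number called thus rests on the tool, the filter and several libraries, while the share over all levels stayed below the matched share in each of these fits.

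Groups that did not overlap (the lowest library of 1 cultivar above the highest of the other) were found for 15.4% of the single-exon gene models tested between Palau 10 and Niue (background 19.3%), 12.1% between Sam-07 and Niue (16.3%) and 10.1% between Sam-07 and Palau 10 (13.5%). Called members had a median absolute log2 fold change of 3.22, 4.02 and 3.48 in the 3 comparisons, against 5.25, 5.49 and 5.42 over all calls. Over all members tested the order was the opposite, with medians of 0.40, 0.40 and 0.39, against 0.32, 0.27 and 0.29 for gene models with several exons. The signed median over members tested was 0.16 between Palau 10 and Niue, -0.03 between Sam-07 and Niue and -0.15 between Sam-07 and Palau 10, and 0.01, 0.03 and 0.04 for gene models with several exons. Leaving out 1 library moved the gap between the sets from 0.03 to 0.30 in the first comparison, -0.12 to 0.09 in the second and -0.28 to -0.07 in the third, so its sign in the second was not stable. The single-exon median itself in that comparison was 0.12 without Niue replicate 2 and 0.03 with library sizes unscaled.

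Over the 3 pairs, 43 calls met the rule for named gene models. Only 13 of them, on 8 gene models, were kept whichever of the 9 libraries was left out, and these 8 are described next. None of the single-exon gene models called in any test overlapped another gene model.

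Of the 8, 3 were lowest in Sam-07. Taro_045634 (828 bp, TARO_scaffold_005424, 42089 to 42916, minus strand) had 0.103, 0.0936 and 0.127 CPM in Sam-07, 21.2, 33.8 and 29.9 CPM in Palau 10, and 5.17, 3.89 and 9.85 CPM in Niue. The 3 cultivars did not overlap. Its mean in Sam-07 was 263-fold below that in Palau 10 (log2 fold change -7.96, SE 0.52, adjusted p = 0.000325 in edgeR's quasi-likelihood test) and 58.5-fold lower than in Niue (-5.78, SE 0.51, adjusted p = 0.00164). It was 4.49-fold higher in Palau 10 than in Niue (2.18, SE 0.36, adjusted p = 0.0168), a call that was lost without Palau 10 replicate 2, Niue replicate 2 or Niue replicate 3 (highest adjusted p = 0.0899).

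Taro_044614 (2388 bp, TARO_scaffold_005068, 38002 to 40389, minus strand) had 1.23, 0.374 and 0.634 CPM in Sam-07, 15.01, 20.1 and 31.4 CPM in Palau 10, and 17.97, 6.65 and 13.5 CPM in Niue. Sam-07 lay below both, while Palau 10 and Niue overlapped. In Sam-07 it was 29.7-fold below Palau 10 (log2 fold change -4.94, SE 0.58, adjusted p = 0.00355, edgeR) and 16.99-fold below Niue (-4.14, SE 0.57, adjusted p = 0.0103). The call against Niue was lost without Sam-07 replicate 3 (adjusted p = 0.0619, edgeR). Taro_005444 (1512 bp, TARO_scaffold_000154, 145512 to 147023, minus strand) had 0.206, 0.468 and 0.254 CPM in Sam-07, 2.55, 3.94 and 1.79 CPM in Palau 10, and 3.55, 5.52 and 6.21 CPM in Niue. It was 16.5-fold lower in Sam-07 than in Niue (-3.90, SE 0.50, adjusted p = 0.00842, edgeR).

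Another 3 were lowest in Palau 10. Taro_029022 (195 bp, TARO_scaffold_001908, 2325 to 2519, plus strand) had 2.98, 5.33 and 2.79 CPM in Sam-07, no fragment in any Palau 10 library, and 5.82, 3.57 and 4.71 CPM in Niue. Over the 3 Palau 10 libraries 3 fragments equal 0.0651 CPM, so it was at least 72.2-fold lower in Palau 10 than in Niue (adjusted p = 0.00252, edgeR) and at least 56.9-fold higher in Sam-07 than in Palau 10 (adjusted p = 0.00259). A sequence unlike the assembly, or one present in several copies, can also leave a count of 0. Taro_051168 (2607 bp, TARO_scaffold_008020, 79 to 2685, minus strand) had 9.98, 4.07 and 8.24 CPM in Sam-07, 0.187, 0.334 and 0.0663 CPM in Palau 10, and 9.56, 9.09 and 7.71 CPM in Niue. Palau 10 lay below both other cultivars. It was 44.9-fold lower in Palau 10 than in Niue (log2 fold change -5.42, SE 0.55, adjusted p = 0.00227, edgeR) and 37.97-fold higher in Sam-07 than in Palau 10 (5.17, SE 0.55, adjusted p = 0.00219). Taro_042480 (2607 bp as well, TARO_scaffold_004426, 1059 to 3665, minus strand) had 10.6, 10.4 and 15.5 CPM in Sam-07, 2.37, 2.54 and 2.19 CPM in Palau 10, and 8.08, 5.52 and 5.14 CPM in Niue. It was 5.14-fold higher in Sam-07 than in Palau 10 (2.35, SE 0.29, adjusted p = 0.00461, edgeR), and the 3 cultivars did not overlap.

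The last 2 were highest in Niue. Taro_041977 (1365 bp, TARO_scaffold_004293, 29358 to 30722, plus strand) had 1 fragment in Sam-07 replicate 2 and none in the other Sam-07 libraries, none in Palau 10, and 9.11, 10.2 and 12.6 CPM in Niue. It was at least 164-fold lower in Palau 10 than in Niue (adjusted p = 0.0015, edgeR), and its adjusted p between Sam-07 and Niue was 0.00287. Taro_049315 (2391 bp, TARO_scaffold_006967, 3316 to 5706, plus strand) had 0.926, 0.515 and 0.254 CPM in Sam-07, 0.249, 0.134 and 0.265 CPM in Palau 10, and 7.17, 6.65 and 6.64 CPM in Niue. It was 31.6-fold lower in Palau 10 than in Niue (log2 fold change -4.92, SE 0.51, adjusted p = 0.00227, edgeR) and 12.1-fold lower in Sam-07 than in Niue (-3.56, SE 0.47, adjusted p = 0.00871).

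**Figure D5:**
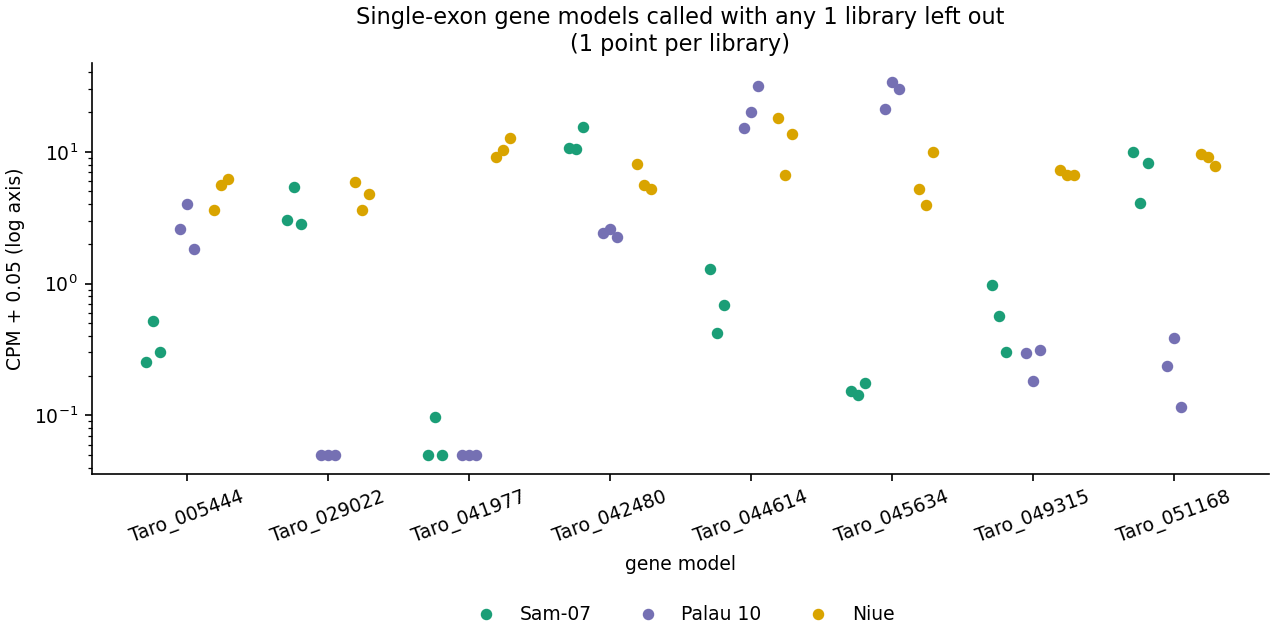
CPM + 0.05 (log axis) of the 8 single-exon gene models whose call was kept whichever library was left out, with 1 point per library and colours for Sam-07, Palau 10 and Niue; the offset lets a count of 0 be drawn. Taro_045634 is lowest in Sam-07, Taro_029022 and Taro_051168 in Palau 10, and Taro_041977 and Taro_049315 are highest in Niue.

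The other named calls were each lost without at least 1 library. For Palau 10 against Niue, Taro_033551 and Taro_042480 were also called (adjusted p = 0.0238 and 0.0480, edgeR). These calls lay beyond the limit of 10 per direction and were not followed in this way. Taro_029062 (1149 bp, TARO_scaffold_001912, 160811 to 161959, minus strand) had 1 fragment over the Sam-07 libraries, 3 over the Palau 10 libraries, and 2.26, 2.11 and 1.71 CPM in Niue. For Palau 10 against Niue its adjusted p was 0.0161, and for Sam-07 against Niue 0.0159 (edgeR). Each call was lost without any 1 Niue library, the first also without Palau 10 replicate 1 or 2 (highest adjusted p = 0.105) and the second without any 1 Sam-07 library (highest adjusted p = 0.0891). Taro_054594 (690 bp, TARO_scaffold_011204, 13496 to 14185, plus strand) had 43.6, 30.1 and 39.9 CPM in Sam-07, 56.0, 73.7 and 60.9 CPM in Palau 10, and 30.3, 28.7 and 25.7 CPM in Niue. It was 2.25-fold higher in Palau 10 than in Niue (log2 fold change 1.17, SE 0.21, adjusted p = 0.0269, edgeR), a call kept only without Sam-07 replicate 1, Sam-07 replicate 2 or Palau 10 replicate 3 and lost without each of the other 6 libraries (highest adjusted p = 0.159). Taro_018342 (2295 bp, TARO_scaffold_000853, 74938 to 77232, minus strand) had 72.4, 69.8 and 63.1 CPM in Sam-07, 37.98, 34.9 and 34.2 CPM in Palau 10, and 53.1, 51.9 and 63.6 CPM in Niue. It was 1.92-fold higher in Sam-07 than in Palau 10 (0.94, SE 0.17, adjusted p = 0.0324, edgeR), a call lost without each library but Palau 10 replicate 3 (highest adjusted p = 0.143). Taro_019847 was 59.3-fold higher in Palau 10 than in Niue by its means (adjusted p = 0.0404, edgeR), and 102.9 CPM in Palau 10 replicate 3 set that mean, beside 8.78 and 7.81 CPM in replicates 1 and 2. Its call was kept without any 1 Palau 10 library and lost without any 1 of the other 6 (highest adjusted p = 0.195, edgeR).

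Single-exon gene models were followed by another single-exon gene model more often than gene models with several exons were. At least 1 was found on 2564 of 11589 scaffolds. Of 3068 single-exon gene models with a next gene model on the scaffold, 375 (12.2%) were followed by another single-exon gene model, against 6.45% of gene models with several exons and a share of 6.77% among all. The value was 13.1% against 6.92% for neighbours closer than 10 kb, 12.2% against 8.30% among expressed gene models only, and 12.4% against 6.68% on scaffolds with at least 10 gene models. Of the 375 pairs 230 (61.3%) were on the same strand, against 50.4% of pairs with several exons each, and the median gap was 9086 bp, against 11479 bp. This order did not hold in all narrower sets. Among expressed gene models only, 54.6% of single-exon pairs were on the same strand, against 57.0%, and the median gap was 22664 bp, against 12824 bp. Within 10 kb the same-strand share was 64%, against 49.3%, and the median gap 3342 bp, against 3097 bp.

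Most runs were short. There were 283 runs of 2, 35 of 3, 6 of 4 and 1 of 5. The run of 5, Taro_047825 to Taro_047829, lies on TARO_scaffold_006276 from 33780 to 62118, and 6 of the 10 gene models of this scaffold have a single exon, the highest share among the 1587 scaffolds with at least 10 gene models (median 6.25%, with 585 holding none). Of its members, Taro_047827 and Taro_047828 (303 and 414 bp) were the most abundant. Taro_047828 had 126.7, 156.7 and 148.9 CPM in Sam-07, 210.8, 221.7 and 39.8 CPM in Palau 10, and 166.0, 131.6 and 115.4 CPM in Niue. Palau 10 replicate 3 was the lowest library for Taro_047827 too, at 20.5 CPM, where the other 8 lay between 68.6 and 120.3 CPM. By contrast, Taro_003446 and Taro_006232, in the 2 runs of 4 on TARO_scaffold_000089 and TARO_scaffold_000181, had no fragment in any library.

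Of the 42 runs of 3 or more, 2 held a called member. Of all gene models tested, 3.09% were called in at least 1 of the 4 tests, a share per gene model and not per run. The run on TARO_scaffold_000967 spans Taro_019846, Taro_019847 and Taro_019848 (288752 to 295658; 495, 492 and 495 bp), and all 3 peaked in Palau 10 replicate 3, at 134.9, 102.9 and 44.6 CPM. In Palau 10 replicates 1 and 2 they had 7.10 and 6.61 CPM, 8.78 and 7.81 CPM, and 1.99 and 1.34 CPM. The run on TARO_scaffold_002934 (114639 to 149339) holds Taro_035657, which had 9.88, 12.9 and 23.2 CPM in Sam-07, 24.3, 39.5 and 52.4 CPM in Palau 10, and 9.63, 3.41 and 7.71 CPM in Niue, 5.60-fold higher in Palau 10 than in Niue (adjusted p = 0.0404, edgeR). The call was lost without each library but Sam-07 replicate 3 (highest adjusted p = 0.164). Its neighbour Taro_035656 (146719 to 147921) ends just before Taro_035657 starts at 147942. It had 7.91, 10.6 and 19.7 CPM in Palau 10 and 3.10, 1.79 and 4.71 CPM in Niue, also without overlap, and missed the threshold.

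Neighbouring single-exon gene models varied together between libraries. Among 50 pairs with a mean of at least 3 CPM each, the median of Pearson's r of log2(CPM + 1) over the 9 libraries was 0.62, and 16 pairs (32%) exceeded 0.8. Among 5134 pairs with several exons each, the median was 0.13 and 9.19% exceeded 0.8. Any 2 single-exon gene models on different scaffolds had a median r of 0.097, and any 2 with several exons 0.0049. These values describe the libraries, which share depth and handling, and carry no test. On the same strand the median of the single-exon pairs was 0.67 and on opposite strands 0.36 (25 pairs each), with 8 pairs (32%) above 0.8 on either. Pairs with several exons each also had the higher median on the same strand, 0.23 against 0.02, with 13.0% and 4.34% above 0.8. The 36 members called in at least 1 of the 4 tests (1.93%, background 3.09%) lay on 33 scaffolds. Scaffolds TARO_scaffold_000154, TARO_scaffold_000185 and TARO_scaffold_004426 held 2 each, of 5, 2 and 2 single-exon gene models tested there. Both had their lowest mean in Sam-07 on TARO_scaffold_000154 and on TARO_scaffold_000185, and their highest in Sam-07 on TARO_scaffold_004426.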

How the data were processed

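Leaf RNA of 9 libraries was measured by RNA-seq. Per the file headers, the authors' deposited values are raw counts of read pairs per gene model from featureCounts 1.4.6-p4, summed over exons. Per the file headers, strand was not set, and fragments that mapped to several places or overlapped more than 1 gene model were not counted. Thus RNA of the opposite strand counts for a gene model, and near-identical copies, common among intronless families, are undercounted. The other tools, per the submitters' processing notes, were Trimmomatic 0.33, bcl2fastq 1.8.4, Subread 1.4.6 and a STAR version written as 3.5.0a; the genome build is not stated there. Positions count from 1.

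Counts were used as deposited, in R 4.3.3 with edgeR 4.0.16 (glmQLFit and glmQLFTest, two-sided; TMM factors; filterByExpr with minimum count 10 and minimum total 15) and Python 3.11.15. One fit held all 9 libraries, with cultivar as its term and Benjamini-Hochberg adjustment over all 18865 gene models tested. CPM values use the TMM factors. Standard errors (SE) are approximate, from the F statistic and the fitted log2 fold change. Level matching weighted gene models with several exons by CPM class (limits 1, 3, 10, 30 and 100 CPM) to the single-exon set. Folds are ratios of mean CPM; against a cultivar with no fragment they are lower bounds at 3 fragments over its 3 libraries. Each library counted as 1 replicate. Libraries of 1 cultivar differed in every pair by more than sampling noise (chi-square per degree of freedom 35.7 to 260.2). This cannot show whether they are separate plants, since preparations of 1 plant can differ too. The biological coefficient of variation was 0.44. The fit was tested on simulated data.

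Named gene models are called ones without overlap between cultivars (up to 10 per direction), the 10 most abundant per kb, those with the 5 highest and 5 lowest SDs, the 5 longest and 5 shortest, the members of the 3 longest runs and of runs with a call, and those without a fragment in 1 cultivar; the text gives part of these, and those called in all fits without 1 library were picked from them after their values were seen. The members and lists were chosen with earlier results of these data known. Alternatives were DESeq2 1.42.0, RLE factors, no scaling beyond library size, other filters, limits and pseudocounts, the replicate number as a block, only the libraries of a pair, thinning to the smallest library and leaving out each library. The floor of 1 CPM per kb and 4 alternatives for the spread (leaving out Palau 10 replicate 3 and Sam-07 replicate 2 together, removing overlapping gene models, classes of length and level together, and centring each library) were added after seeing the data.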

Additional observations from a re-analysis of the deposited data

How the results depend on the processing

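The number of calls depended most on the processing. In the order Palau 10 against Niue, Sam-07 against Niue, Sam-07 against Palau 10 and any difference, the 18, 8, 19 and 27 single-exon calls were 61, 48, 70 and 102 with DESeq2 (3.27%, 2.58%, 3.76% and 5.47%, against 3.80%, 3.08%, 3.92% and 6.01% of all tested) and 2, 2, 4 and 3 with at least 10 CPM in 3 libraries (0.210%, 0.210%, 0.419% and 0.315%, against 0.776%, 0.569%, 0.707% and 1.09%). They ranged from 5 to 29, 4 to 17, 5 to 39 and 8 to 44 when 1 library was left out, and the highest of each was without Palau 10 replicate 3. With only the 6 libraries of the pair, Sam-07 against Niue gave 16 (0.964%, background 1.64%) and Sam-07 against Palau 10 gave 10 (0.557%, background 1.16%). The share called, 1.45%, was 0.315% with at least 10 CPM in 3 libraries, 5.47% with DESeq2 and 0.420% to 2.34% when 1 library was left out, below the level-matched share in each. The causes were not tested. A replicate block gave 0, 1, 4 and 1 calls (0%, 0.0537%, 0.215% and 0.0537%, against 0.00530%, 0.0477%, 0.371% and 0.132% of all tested). Whether equal numbers mark paired libraries is not settled. Same-numbered libraries had r from -0.48 to 0.42 and differently numbered ones from -0.49 to 0.47, over too few pairs to decide it. DESeq2 kept 42 of the 43 named calls and gave no adjusted p for the other. The block kept 4, of which 3 are among the 13 calls kept without any 1 library. At least 10 CPM in 3 libraries left 6 of the 8 gene models with such calls untested.

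The share expressed was 46.6% at 0.5 CPM and 28.3% at 5 CPM, and 42.3% to 42.8% without 1 library. The level at 300 bp or less was 24.4 CPM per kb with at least 1 fragment in all 9 libraries. With a floor of 1 CPM per kb, levels were 14.3 at 300 bp or less, 20.6 above 300 and up to 600 bp, 6.91 above 1200 and up to 2400 bp and 4.71 above 2400 bp. The permutation p of the fragment share was 0.0286 without Sam-07 replicate 2 and 0.0286 to 0.414 over all 9 omissions. The difference in spread was 0.10 to 0.15 without 1 library. Library sizes unscaled moved the median log2 fold change of Sam-07 against Niue in single-exon gene models to 0.03 and leaving out Niue replicate 2 to 0.12, against -0.03, and unscaled sizes moved that of Palau 10 against Niue in gene models with several exons to 0.15, against 0.01. No named call changed direction; of the values for single gene models, 439 kept their side of the threshold and 264 lost it.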

Other observations

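A length class of abundant single-exon gene models, singled out after values were seen, varied strongly between libraries. Of 23 single-exon gene models of 801 or 804 bp, 6 had a mean of at least 100 CPM, out of 118 single-exon gene models at that level. They are Taro_028950, Taro_050602, Taro_020658, Taro_043574, Taro_043573 and Taro_053133. Together they took 38.2%, 6.496% and 21.2% of the single-exon fragments in Sam-07, 17.4%, 7.97% and 17.4% in Palau 10, and 7.63%, 7.88% and 14.7% in Niue. Taro_043573 and Taro_043574 lie on opposite strands of TARO_scaffold_004742, from 29554 to 30357 and from 37745 to 38545. Taro_043574 had 5598, 16.8 and 2568 CPM in Sam-07, 444.1, 97.5 and 265.4 CPM in Palau 10, and 83.3, 48.2 and 545.5 CPM in Niue. Over the 9 libraries the median of Pearson's r among the 6 was 0.917, with a lowest value of -0.184, and Taro_053133 stayed between 40.5 and 192.4 CPM.

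The share of single-exon gene models changed little with the number of gene models on a scaffold, from 6.48% on scaffolds with 1 gene model to 7.28% on those with 20 or more. On scaffolds with 1 gene model 42.0% of the single-exon gene models were expressed, against 15.04% of those with several exons, and on scaffolds with 20 or more 45.1% against 37.1%.

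Among the longest single-exon gene models at 1 CPM or more in all 9 libraries, Taro_013296 (5349 bp, TARO_scaffold_000529, 239835 to 245183, plus strand) had 43.1, 34.2 and 58.2 CPM in Sam-07, 32.7, 32.3 and 66.2 CPM in Palau 10, and 36.0, 33.9 and 40.0 CPM in Niue. Among the shortest, Taro_001156 (180 bp, TARO_scaffold_000024, 112096 to 112275, minus strand) lay between 22.1 and 36.8 CPM.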
